A study of Mus musculus with 4 samples.

Results

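Lysyl oxidases and collagen hydroxylases were followed between pre-ALT cells at PD100 and post-ALT cells at PD800. ALT is the alternative lengthening of telomeres, and PD counts population doublings in culture. The 10 genes were *Lox*, *Loxl1*, *Loxl2*, *Loxl3*, *Loxl4*, *Plod1*, *Plod2*, *Plod3*, *P4ha1* and *P4ha2*, matched by symbol among the 53379 gene identifiers of the deposited files. They were chosen by name with their RNA levels at PD100 and PD800 already known, so the difference between those groups is given for them as a description, with no p. All 4 libraries were bulk RNA of DKO741, a *Terc*-/- line obtained from E14 mouse embryonic stem cells by replacing both alleles of the telomerase RNA gene, with Cre used to remove the neo cassette after the first step. The 2 PD100 and the 2 PD800 libraries therefore share the genotype, and differ in the number of doublings and in having passed into ALT. DKO741 is 1 line that produced survivors rarely, so the time in culture, ALT and the descent of the survivors cannot be told apart. The paper calls the duplicates biological, while the labels speak of passages 100 and 800 and of total RNA, and Terc+/+ cells were not analysed here. For *Terc*, the targeted gene, 1 fragment was counted in PD100 replicate 1 and 0 in each of the others.

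Collagen chains are modified in the endoplasmic reticulum before they leave the cell. Prolyl 4-hydroxylase, a complex of alpha subunits (encoded by *P4ha1* and *P4ha2* among others) with protein disulphide isomerase (*P4hb*), makes the 4-hydroxyproline that holds the triple helix together. Lysyl hydroxylases (*Plod1* to *Plod3*) hydroxylate lysines, which are then sites for sugars and for stable cross-links. Outside the cell, the copper-dependent lysyl oxidases (*Lox* and *Loxl1* to *Loxl4*) oxidise lysines of collagen and elastin, and the aldehydes formed become the cross-links. Both hydroxylases use iron, 2-oxoglutarate, oxygen and ascorbate, and several of the genes are known targets of hypoxia-inducible factors. In the early embryo, parietal endoderm is known for secreting large amounts of basement membrane collagen.

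The promoters of the prolyl 4-hydroxylase subunits are shown because both genes were much lower in PD800 cells, and that of *Plod3* because it was lower by a smaller amount. Each is the RefSeq sequence (GRCm38.p6) from 250 bases before to 50 bases after the annotated start, read along the gene. Capitals mark ACGTG or GCGTG on either strand, the core letters that hypoxia-inducible factors are known to bind, so that a match on the reverse strand reads CACGT or CACGC. *P4ha1* is from chr10:59323046-59323345, *P4ha2* from chr11:54100674-54100973 and *Plod3* from chr5:136986769-136987068, all on the plus strand. The *P4ha2* sequence lies inside the gene as the GENCODE annotation places it, from 54100095, so it surrounds a later start given by RefSeq.
P4ha1: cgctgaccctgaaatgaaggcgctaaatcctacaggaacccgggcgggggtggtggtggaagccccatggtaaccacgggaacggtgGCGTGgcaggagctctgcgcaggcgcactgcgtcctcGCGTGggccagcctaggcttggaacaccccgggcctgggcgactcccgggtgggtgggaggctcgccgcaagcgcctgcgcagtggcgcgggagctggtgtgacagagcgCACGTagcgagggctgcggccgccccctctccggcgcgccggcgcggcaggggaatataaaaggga
P4ha2: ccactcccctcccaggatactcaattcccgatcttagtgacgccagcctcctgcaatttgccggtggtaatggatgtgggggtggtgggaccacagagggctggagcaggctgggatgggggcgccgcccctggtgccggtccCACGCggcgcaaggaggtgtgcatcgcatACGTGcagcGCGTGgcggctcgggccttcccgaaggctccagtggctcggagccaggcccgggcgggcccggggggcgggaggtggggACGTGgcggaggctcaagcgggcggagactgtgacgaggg
Plod3: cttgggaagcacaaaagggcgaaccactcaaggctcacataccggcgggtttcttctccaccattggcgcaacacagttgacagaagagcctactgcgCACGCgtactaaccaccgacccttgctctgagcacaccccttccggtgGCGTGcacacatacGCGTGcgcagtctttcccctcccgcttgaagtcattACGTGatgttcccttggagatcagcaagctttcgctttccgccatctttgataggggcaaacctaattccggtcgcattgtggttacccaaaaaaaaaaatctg
*P4ha1* held 3 matches, *P4ha2* held 4 and *Plod3* held 4, and none of them lay in the palindrome CACGTG. Promoters of 5 of the 10 genes were examined, and the 2 not printed were *Plod1* with 2 matches and *Loxl4* with 1. Those of *Lox*, *Loxl1*, *Loxl2*, *Loxl3* and *Plod2* were not examined, which does not mean that they lack a promoter or a match. Of all 32851 promoters of this length in the table, 43.8% held at least 1 match and 8.93% at least 3. GC content was 70.3% in both *P4ha* promoters, 53.3% in that of *Plod3* and 52.7% at the median of all promoters. A match is a run of letters, and binding was not measured.

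All 10 genes passed the filter on low counts that left 19148 genes for the test, and all 10 were lower in PD800 cells. Of these, 5 were called lower (*Loxl2*, *P4ha2*, *Loxl4*, *P4ha1* and *Lox*), where a call needs both a change beyond 2-fold and an adjusted p below 0.01 when edgeR tests all genes, against 8.81% of all tested genes called lower and 6.28% called higher. In each of the 10, both PD800 libraries lay below both PD100 libraries in CPM (counts scaled to library size with edgeR's TMM factors), which held for 36.3% of all tested genes. The median log2 fold change was -1.18 over the 10 genes and 0.01 over all tested genes. The genes lay in separate ranges, from -3.76 to -1.73 for the 5 called genes and from -0.64 to -0.48 for the other 5. Expected counts are the numbers of fragments that RSEM assigns to a gene, and summed to between 32454121 and 38492149 per library. A floor of 3 counts lay between 0.0743 and 0.0934 CPM, below every value of these genes, and covers counting error only. The smallest p that a two-sided exact permutation test can reach with 2 libraries in each group is 0.333.

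**Figure D1:**
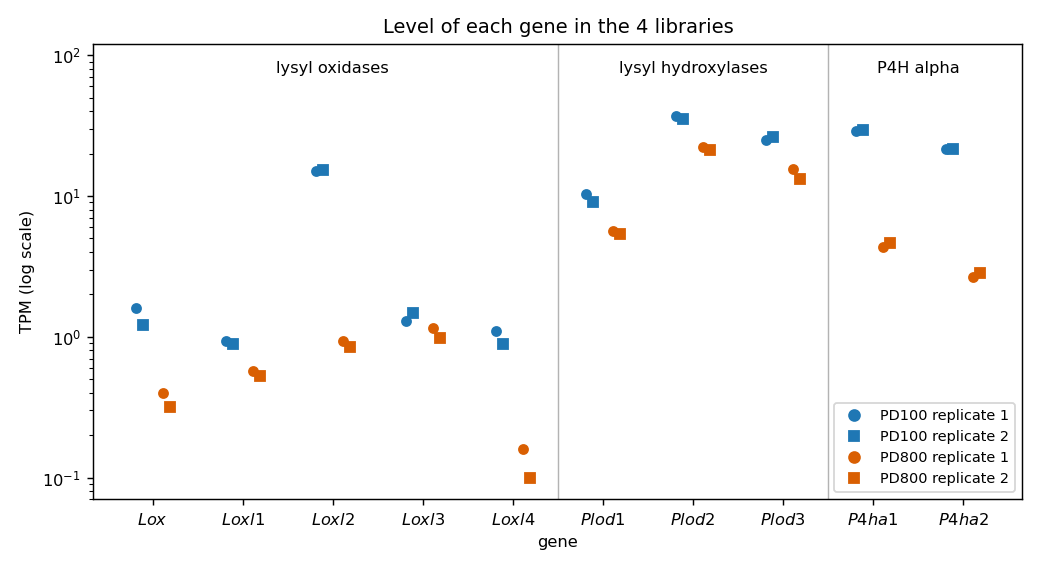
TPM (RSEM's level per transcript length, log axis) of the 10 genes in each of the 4 libraries, PD100 in blue and PD800 in orange, with circles for replicate 1 and squares for replicate 2. For every gene both PD800 points lie below both PD100 points, from 15 and 15.4 to 0.93 and 0.85 TPM for *Loxl2* at one extreme to 1.3 and 1.48 against 1.15 and 0.98 TPM for *Loxl3* at the other.

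Among the lysyl oxidases, *Loxl2*, which is known to act on type IV collagen of basement membranes, differed most. *Loxl2* (ENSMUSG00000034205.16, GRCm38 chromosome 14, 69609068 to 69695834, plus strand) counted 4022 and 3276 fragments at PD100 against 267 and 231 at PD800. Both PD100 libraries were at a high level with little spread, and the PD800 libraries lay far below them. This is 98.9 ± 1.05 CPM (SD, n = 2) in PD100 and 7.30 ± 0.164 CPM (SD, n = 2) in PD800 (log2 fold change -3.76, SE 0.08), so that 7.40% of the PD100 level was left. The 4 pairings of a PD100 with a PD800 library gave values between -3.79 and -3.73.

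*Loxl4* (chromosome 19, 42593982 to 42612813, minus strand), a paralogue with the same scavenger receptor domains, was low in both groups and lower in PD800. It counted 194 and 152 fragments at PD100 against 26 and 18 at PD800, or 4.68 ± 0.178 against 0.642 ± 0.115 CPM (SD, n = 2 each). The log2 fold change was -2.85 (SE 0.22). *Lox*, the founding member, which cross-links fibrillar collagen and elastin, counted 334 and 223 fragments at PD100 against 87 and 67 at PD800. This is 7.48 ± 1.13 CPM (SD, n = 2) in PD100 and 2.25 ± 0.237 CPM (SD, n = 2) in PD800 (log2 fold change -1.73, SE 0.18). The PD100 replicates of *Lox* lay apart, at 8.27 and 6.68 CPM, but both were above the PD800 libraries at 2.42 and 2.09 CPM. On log2(TPM + 1), where a pseudocount of 1 weighs on genes of such low level, limma gave -0.82 for both *Lox* and *Loxl4*, less than 2-fold. *Lox* was also not called when the 2-fold change itself was tested.

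*Loxl1*, known for its part in elastic fibres, and *Loxl3*, known for its part in palate and spine development, differed least. *Loxl1* (chromosome 9, 58287738 to 58313186, minus strand) counted 152 and 133 fragments at PD100 against 99 and 87 at PD800 (log2 fold change -0.50, SE 0.16). *Loxl3* (chromosome 6, 83034173 to 83052562, plus strand) counted 231 and 224 fragments at PD100 against 154 and 149 at PD800 (log2 fold change -0.48, SE 0.15). Neither was called. Exons of *Loxl3* share 535 bases, 11.6% of its exonic length, with *Htra2* on the opposite strand, and whether counting used strand is not given in the sources used here. *Htra2* counted 762 and 753 fragments at PD100 against 646 and 573 at PD800.

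All 3 lysyl hydroxylases were lower by similar amounts, with log2 fold changes between -0.64 and -0.55, and none passed the 2-fold threshold. *Plod2*, the hydroxylase of the telopeptide lysines that form stable cross-links, was the most abundant of the 10 genes in both groups. *Plod2* (chromosome 9, 92542223 to 92608428, plus strand) was at 36.7 and 35.1 TPM in PD100 and at 22.3 and 21.2 TPM in PD800. Its log2 fold change in counts was -0.55 (SE 0.07). *Plod3* (chromosome 5, 136987019 to 136996648, plus strand), which also transfers sugars to hydroxylysine, was at 25 and 26.2 TPM in PD100 and at 15.6 and 13.3 TPM in PD800, with a log2 fold change in counts of -0.59 (SE 0.07). *Plod1* (chromosome 4, 147909753 to 147936767, minus strand), known for hydroxylating lysines within the helix, was at 10.4 and 9.08 TPM in PD100 and at 5.68 and 5.39 TPM in PD800. Its log2 fold change in counts was -0.64 (SE 0.08), the largest of those under 2-fold. The spread between replicates was small beside these differences, and no group overlapped another. *Plod3* shares 529 exonic bases (11.7%) with *Znhit1* on the opposite strand, whose counts were 734 and 854 in PD100 and 1013 and 988 in PD800.

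The alpha subunits of prolyl 4-hydroxylase, which carry the catalytic site, were lower together. *P4ha1* (ENSMUSG00000019916.14, chromosome 10, 59323296 to 59373304, plus strand) counted 4366 and 4049 fragments at PD100 against 736 and 704 at PD800. This corresponds to 115 ± 9.30 CPM (SD, n = 2) and 21.2 ± 1.01 CPM (SD, n = 2) (log2 fold change -2.44, SE 0.09). *P4ha2* (ENSMUSG00000018906.14, chromosome 11, 54100095 to 54131665, plus strand) counted 2004 and 1928 fragments at PD100 against 250 and 221 at PD800. It was at 53.7 ± 5.74 CPM (SD, n = 2) in PD100 and at 6.92 ± 0.0546 CPM (SD, n = 2) in PD800 (log2 fold change -2.96, SE 0.11). Both stayed beyond 2-fold in each pairing of libraries, from -2.57 to -2.30 for *P4ha1* and from -3.07 to -2.84 for *P4ha2*. Expressed as TPM, the pair summed to 50.4 and 51.2 in PD100 and to 7.01 and 7.49 in PD800. The partner subunit *P4hb*, which is also a general oxidoreductase of the endoplasmic reticulum, was at 274 and 317 TPM in PD100 and at 390 and 411 TPM in PD800. The alpha subunits thus made 0.184 and 0.161 TPM for each TPM of *P4hb* in PD100, and 0.0180 and 0.0182 in PD800. The remaining alpha subunit, *P4ha3*, had between 12 and 26 counts in all 4 libraries.

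Levels between genes were compared per length, in TPM. In PD100 the order was *Plod2* (35.9 ± 1.09 TPM), *P4ha1* (29.2 ± 0.474), *Plod3* (25.6 ± 0.827), *P4ha2* (21.6 ± 0.134), *Loxl2* (15.2 ± 0.240) and *Plod1* (9.75 ± 0.955, SD, n = 2 each), with no overlap between neighbours in this order. The other lysyl oxidases lay between 0.89 and 1.59 TPM, where *Lox* overlapped *Loxl3* and *Loxl4* overlapped *Loxl1*. In PD800 the 3 lysyl hydroxylases came first, from 21.7 ± 0.764 TPM for *Plod2* to 5.54 ± 0.205 TPM for *Plod1*. *P4ha1* (4.5 ± 0.219 TPM) and *P4ha2* (2.75 ± 0.120 TPM) followed, and the lysyl oxidases lay between 0.10 and 1.15 TPM. In PD800, *Loxl3* (1.15 and 0.98 TPM) lay above *Loxl2* (0.93 and 0.85 TPM) per length, while *Loxl2* still had more reads, 7.42 and 7.19 CPM against 4.30 and 4.64 CPM. The order in TPM rests on the length RSEM gave *Loxl3*, which was shorter in PD800 (2561 and 3051 bases) than in PD100 (3573 and 3342 bases).

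The make-up of the lysyl oxidase family in TPM differed between the groups, a comparison within each library that does not depend on scaling between libraries but does depend on these lengths. Its summed level was 20.0 and 19.8 TPM in PD100 and 3.21 and 2.78 TPM in PD800. *Loxl2* made up 75.3% and 77.5% of this sum in PD100 and 29.0% and 30.6% in PD800. *Loxl3* made up 6.52% and 7.46% in PD100 and 35.8% and 35.3% in PD800, and *Loxl1* 4.66% and 4.49% against 17.8% and 19.1%. The proportions of the lysyl hydroxylases differed little, with groups that overlapped for *Plod1* and *Plod3*. *Plod2* made up 50.8% and 49.9% of their sum in PD100 and 51.1% and 53.1% in PD800, a small gap between the groups, while the sum went from 71.2 ± 1.22 to 41.8 ± 2.60 TPM. For the prolyl 4-hydroxylase subunits, *P4ha1* made up 57.3% and 57.7% in PD100 and 61.9% and 62.1% in PD800, a small shift with no overlap.

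**Figure D2:**
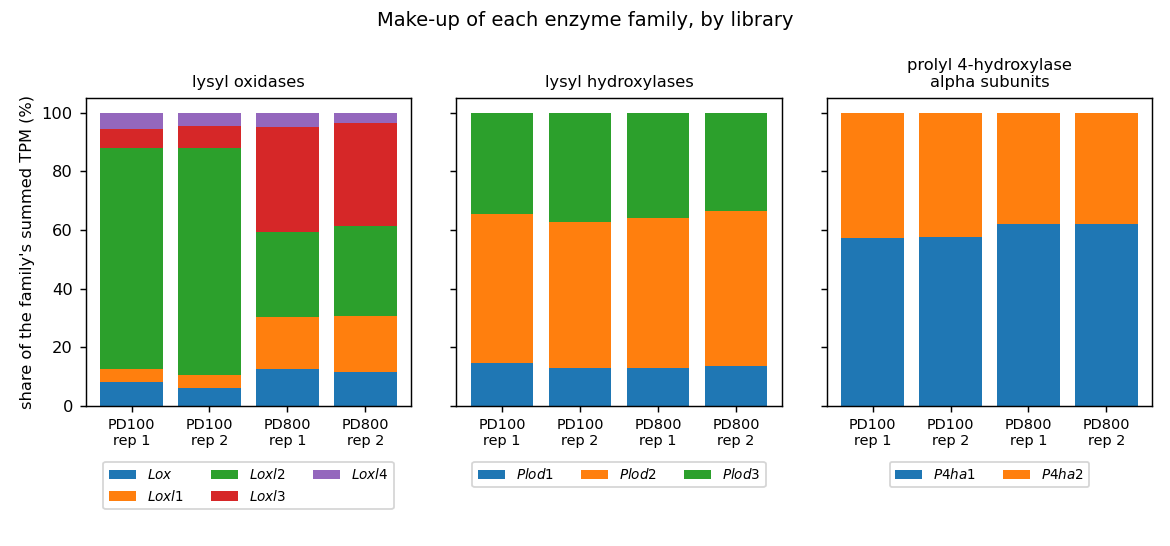
Share of each gene in the summed TPM of its family (percent, stacked bars from 0) in the 4 libraries, for lysyl oxidases, lysyl hydroxylases and prolyl 4-hydroxylase alpha subunits. *Loxl2* fills most of the lysyl oxidase bars in PD100 (75.3% and 77.5%) and 29.0% and 30.6% in PD800, while *Plod2* fills between 49.9% and 53.1% of the lysyl hydroxylase bars.

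The mean transcript length that RSEM estimates for a gene moves with the use of its annotated transcripts and was not part of the choice of genes. It was lower in both PD800 libraries than in both PD100 libraries for *Loxl3*, *Plod1* and *P4ha2*, and overlapped for the other 6 genes with several transcripts. *P4ha2*, with 15 annotated transcripts, had a mean length of 1961 and 2023 bases in PD100 and of 1836 and 1636 bases in PD800. *Loxl3* went from 3573 and 3342 to 2561 and 3051 bases, and *Plod1* from 3215 and 3131 to 3093 and 3003 bases. Among 13295 tested genes with several transcripts, 14.6% were shorter without overlap in PD800 and 20.1% longer. For *Loxl2* the estimate was 4645 bases in PD100 replicate 2 and 5316 bases in the other libraries, so that its TPM in that library rests on another length. Which transcripts changed was not tested.

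The position of the genes was examined through the 40 tested genes nearest to each. These spanned from 1.18 Mb around *Loxl3* to 12.6 Mb around *Lox*, so the medians cover regions of unlike size. The neighbours of *P4ha1* on chromosome 10 had a median log2 fold change of -0.98, with 16 of 40 called lower, and only 0.659% of 19110 genes had a neighbour median as low or lower. *Loxl2* on chromosome 14 was similar, with a neighbour median of -0.98, 15 of 40 called lower and a share of 0.822%. The medians of all tested genes on these chromosomes were -0.22 and -0.31. After the neighbour median was taken off, *Loxl2* was at -2.78 and *P4ha1* at -1.45. The neighbours of *P4ha2* had a median of -0.47 and those of *Loxl4* of -0.38, which left -2.48 for each gene. *Lox*, with neighbours at -0.02, was at -1.71. For the 5 genes not called, neighbour medians lay between 0.05 (*Plod2*) and 0.55 (*Plod1*), and the genes were between -1.19 and -0.55 relative to them. *Bmp1*, which cleaves procollagen and activates prolysyl oxidases, starts 865 kb from *Loxl2* and fell by 2.78 on the log2 scale (SE 0.12, edgeR adjusted p = 5.56e-05), in both PD800 libraries. Copy number was not analysed here, and its part in these differences was not tested.

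**Figure D3:**
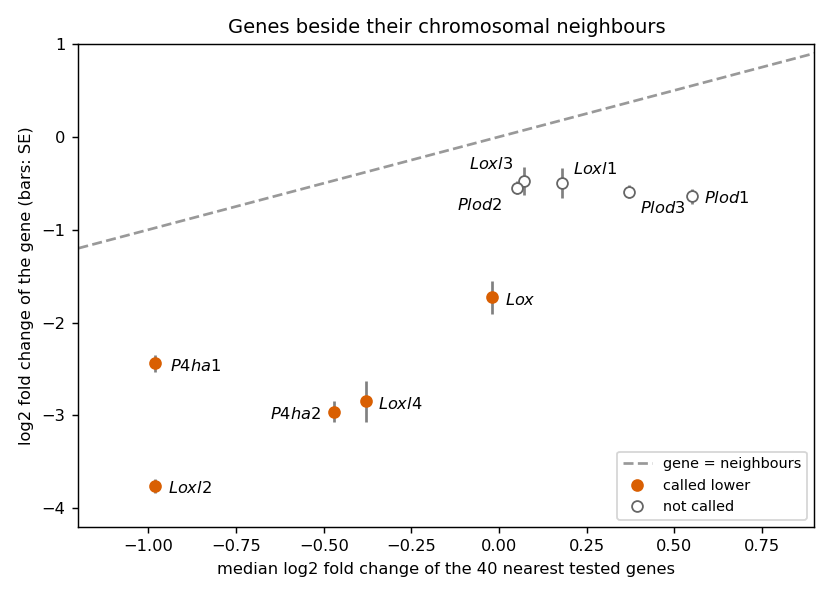
Log2 fold change (PD800 over PD100) of each of the 10 genes, with its standard error, against the median log2 fold change of the 40 nearest tested genes, with called genes filled and a dashed line where both are equal. All 10 genes lie below the line, and *P4ha1* and *Loxl2* stand at the left, with neighbours at -0.98.

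The patterns nearest to those of *Loxl2* and *P4ha1* were taken among the 10705 tested genes averaging 5 CPM or more, by the Euclidean distance of centred log2 CPM over the 4 libraries. For *Loxl2* these were *Ets1* (distance 0.123), *Chst15* (0.155) and *Nrg1* (0.159), and for *P4ha1* they were *Anxa3* (0.0663), *Unc5b* (0.0700) and *Nrp1* (0.0701). With 4 libraries in 2 groups, such a distance says little beyond a difference of like size. *Unc5b* is also 1 of the 40 neighbours of *P4ha1*, at 1439 kb.

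Other genes of collagen maturation did not move as one. Of the 14 further modifiers and chaperones of the endoplasmic reticulum that were listed, 13 were tested, 4 were called lower and 0 higher, with a median log2 fold change of -0.16. *Serpinh1*, the collagen chaperone HSP47, went from 240 and 230 CPM to 48.1 and 47.2 CPM, a decrease of 4.94-fold (log2 fold change -2.30, SE 0.08, edgeR adjusted p = 3.86e-05). *P3h4*, a partner of the lysyl hydroxylase complex, fell by 1.28 on the log2 scale (SE 0.12, edgeR adjusted p = 0.000552). *P3h2* and *Fkbp10* were the other calls, and those of *P3h4* and *Fkbp10* were lost when the 2-fold change itself was tested. That of *Fkbp10* was also lost without PD100 replicate 1 or PD800 replicate 2, and that of *P3h2* with limma on log2(TPM + 1). *P4hb*, whose log2 fold change in counts was 0.67 (SE 0.09), was not among the calls. Of 13 genes of procollagen export and processing, 12 were found, 11 tested and 2 called lower, *Bmp1* and *Adamts14*, and 0 were called higher, with a median of 0.07. Of these 2 calls, that of *Adamts14* was lost when PD100 replicate 2, PD800 replicate 1 or PD800 replicate 2 was left out, with limma on either TPM scale and when the 2-fold change itself was tested.

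Of the substrates, type IV collagens summed to 198 and 231 TPM in PD100 and to 7.59 and 8.49 TPM in PD800, and 3 of 5 tested genes were called lower and 0 higher, with a median log2 fold change of -1.77. The call of *Col4a5* was lost without PD800 replicate 1, with limma on log2(TPM + 1) and when the 2-fold change itself was tested. *Col4a2* fell by 4.86 on the log2 scale (SE 0.14, edgeR adjusted p = 3.11e-05) and *Col4a1* fell by 4.42. Of 11 tested fibrillar collagen and elastin genes, 8 were called lower and 1 higher, with a median of -1.80 (3 lower with limma on log2(TPM + 1), and 5 lower when the 2-fold change itself was tested). *Col1a1* fell by 3.07 on the log2 scale (SE 0.34, edgeR adjusted p = 0.00101) and *Col1a2* fell by 2.33. *Col11a1* rose from 4.14 and 5.09 to 13.5 and 12.0 CPM (log2 fold change 1.47, SE 0.14, edgeR adjusted p = 0.000591), a call that was lost with limma on TPM and when the 2-fold change itself was tested. Per TPM of these collagen and elastin genes, the 10 enzymes summed to 0.669 and 0.566 TPM in PD100 and to 4.12 and 3.69 TPM in PD800. The type IV sum makes up most of the collagen TPM in PD100. The fibrillar collagens and elastin alone summed to 15.2 and 19.1 TPM in PD100 and to 5.47 and 5.12 TPM in PD800, beside lysyl oxidases that went from 20.0 and 19.8 to 3.21 and 2.78 TPM. Among 9 tested genes of copper supply and of matrix partners of lysyl oxidases, *Efemp2*, which brings lysyl oxidase to elastin, was the 1 called lower (-1.81, SE 0.11, edgeR adjusted p = 0.000138). *Atp7a*, the pump that loads copper into secreted enzymes, was the 1 called higher (without PD100 replicate 2, 2 genes of the list were called lower), from 26.3 and 26.0 to 78.6 and 77.6 CPM (1.58, SE 0.07, edgeR adjusted p = 6.95e-05).

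Related enzymes and hypoxia-inducible genes were compared because of the shared chemistry and regulation. Of 12 other protein hydroxylases that use 2-oxoglutarate, such as the oxygen sensors, 1 was called lower and 0 higher, with a median of -0.11. The call was *Egln1*, which marks hypoxia-inducible factor for degradation, from 14.6 and 14.8 to 6.09 and 6.29 CPM (log2 fold change -1.25, SE 0.09, edgeR adjusted p = 0.000264), and it was lost when the 2-fold change itself was tested and with limma on log2(TPM + 1). Of 23 textbook targets of hypoxia-inducible factors outside the family, 3 were called higher and 3 lower, with a median of 0.09. *Pgk1* rose by 1.67 on the log2 scale (SE 0.11, edgeR adjusted p = 0.00017) and *Slc2a3* rose by 1.19, while *Ddit4* fell by 1.77 (SE 0.09, edgeR adjusted p = 8.33e-05) and *Aldoc* fell by 1.10. *Ddit4* lies 626 kb from *P4ha1*, among its 40 neighbours. Without PD100 replicate 2, 5 of the targets were called higher and 4 lower. With limma on log2(TPM + 1), 1 was called higher and 2 lower, and when the 2-fold change itself was tested, 1 higher and 1 lower. The call of *Slc2a3* was lost in both, and also on log2(TPM + 0.1), and that of *Aldoc* in the test of the 2-fold change.

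**Figure D4:**
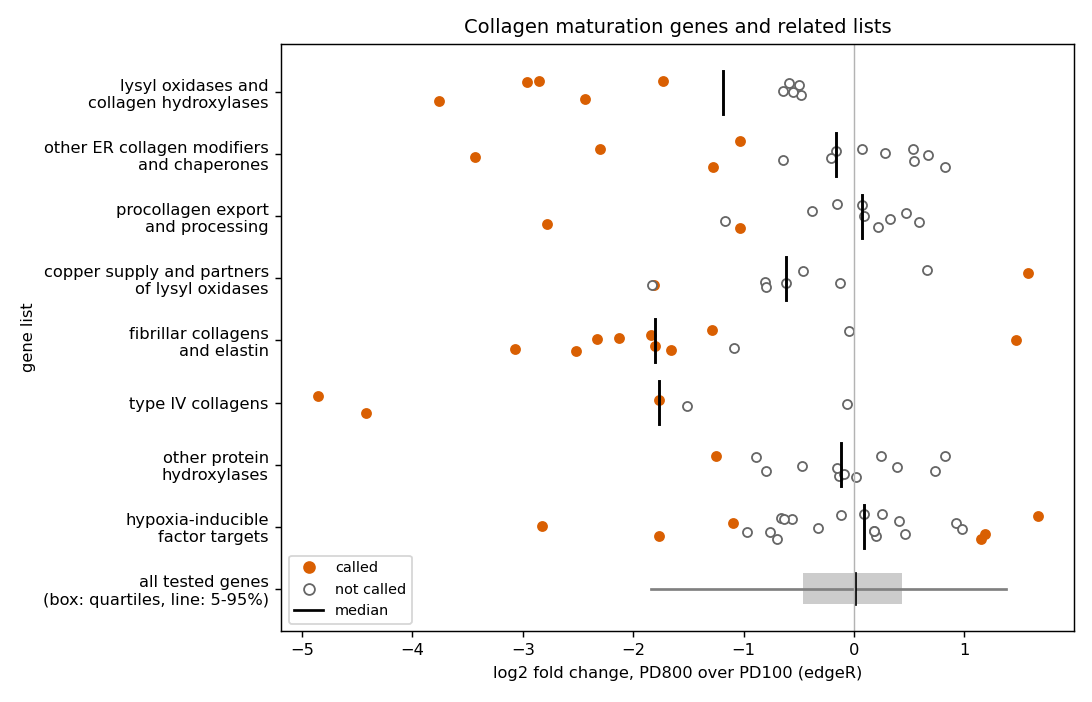
Log2 fold change (PD800 over PD100, edgeR) of each tested gene in the 8 lists, with called genes in orange, other genes open and the median as a black bar, above a box of the quartiles of all tested genes with a line from the 5th to the 95th percentile. The 10 enzymes (top row, median -1.18) and the collagen lists (medians -1.80 and -1.77) lie to the left, while the hypoxia-inducible factor targets lie on both sides of 0 (median 0.09).

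Markers of other cell types moved with these genes. The 10 embryonic stem cell markers were expressed in both groups, and 4 were called higher and 0 lower. *Pou5f1*, not called, was at 467 and 503 CPM in PD100 and at 601 and 635 CPM in PD800. *Klf4*, called higher and the lowest of the 10 in PD100, went from 20.0 and 16.4 to 134 and 126 CPM. All 10 markers of primitive and parietal endoderm were called lower, and their sum went from 1334 and 1378 CPM to 190 and 194 CPM. None of them was at or under the floor in all libraries, although *Foxa2* had 1 count in each PD800 library and *Sox17* had 9. Of 10 fibroblast markers, used because feeder cells keep the stock although feeder-free cells were extracted, 8 were tested, 5 were called lower and 0 higher, with 2 called lower by limma on log2(TPM + 1). The call of *Twist2* was lost without PD800 replicate 1 or PD800 replicate 2. The sum of the fibroblast markers was 50.5 and 72.4 CPM in PD100 and 14.8 and 15.8 CPM in PD800, and *Lum* was at or under the floor throughout. The list shares *Col1a1*, *Col1a2*, *Col3a1* and *Postn* with the lists above. The sum of the 10 enzymes went from 528 and 542 CPM to 212 and 209 CPM over the same libraries. In bulk RNA, fewer cells of a type and less RNA per cell cannot be told apart, and the part of other cell types in the differences was not tested. From single-cell RNA sequencing, the paper reports separate PD100 and PD800 populations, each highly homogeneous, and those data were not examined here.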

How the data were processed

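Per the labels and the paper, the authors aligned paired-end reads with STAR (2.5.3a) to mm10 and quantified genes with RSEM (1.3.0). The deposited expected counts are not scaled for depth, and reads that align to several genes are divided between them. The deposited TPM values were scaled by RSEM for length and to a fixed total, and the deposited length is RSEM's mean over the transcripts of a gene, weighted by abundance. The titles gave the population doubling, by which libraries were grouped.

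Rounded expected counts of all 4 libraries went into edgeR 4.0.16 (R 4.3.3), with filterByExpr (minimum count 10), TMM factors (0.960 to 1.05) and glmQLFTest, edgeR's quasi-likelihood test. P-values were adjusted over all tested genes by the Benjamini-Hochberg method, and a call needed a change beyond 2-fold with an adjusted p below 0.01. Standard errors came from the coefficient and its F statistic. The members and the gene lists were chosen with earlier results of these data known. *Aldoa* had more than 1 identifier, of which that with the most counts was used, and *Mia2* was not matched.

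Named genes were the 10 members, the called list genes averaging 5 CPM or more (the 2 highest and 2 lowest per list), 3 nearest patterns each of 2 members, and *Terc*. These 2 were the called members averaging 5 CPM or more with the highest and the lowest log2 fold change. Neighbours, single markers, *P4hb* as the partner subunit, overlapping genes and calls outside the rule were named after their values were seen. Coordinates came from GENCODE M21 (GRCm38, also called mm10), in which 53274 of 53379 identifiers were found, and promoters from RefSeq. Alternatives were DESeq2 1.42.0, other normalisations, filters and thresholds, the replicate number as a block, limma 3.58.1 on TPM, and leaving out 1 library at a time. The main edgeR fit, edgeR with the replicate block, DESeq2 and limma on log2(TPM + 1) were tested on simulated data. The other alternatives were not. The authors' DESeq2 results were not used. Chi-square per degree of freedom between replicates was 64.1 in PD100 and 9.74 in PD800, more than sampling noise.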

Additional observations from a re-analysis of the deposited data

How the results depend on the processing

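The log2 fold changes of the 10 genes were recomputed under the 12 alternatives that give another estimate, 120 values in all. None turned direction, 118 stayed on the same side of the call and 2 did not, *Lox* and *Loxl4* with limma on log2(TPM + 1), both at -0.82, so that 3 genes were called lower in place of 5; a pseudocount of 1 shrinks differences of genes at about 1 TPM by construction. That scale also moved the median of the 10 genes from -1.18 to -0.80 and that of all tested genes from 0.01 to -0.12, and gave 297 higher and 920 lower genes in place of 1202 and 1686. With log2(TPM + 0.1), where the median of all genes was -0.21, 533 were called higher and 1779 lower. Testing the 2-fold change in the model left 386 higher and 685 lower genes, and 4 of the 10 genes called lower, without *Lox*. A test of the 2-fold change asks more than the main call does, so it gives fewer genes by design. What lay behind the changes on the TPM scales, beyond the pseudocount, was not tested. With each library left out in turn, which leaves a lone library assumed to vary like the pair of the other group, the number of genes called lower among the 10 stayed at 5. Without PD100 replicate 2, 5 hypoxia-inducible factor targets were called higher in place of 3. Of the procollagen export and processing genes, 1 in place of 2 was called lower without PD100 replicate 2, PD800 replicate 1 or PD800 replicate 2. The deviations of same-numbered libraries from the mean of their group correlated at 0.425 (genes averaging 5 CPM or more), but only the number is shared, since the labels do not say what it marks. A fit with a replicate block called 3417 genes, 2884 of the 2888 called without it among them, and 5 of the 10 genes were lower. Counts of 18 to 26 for *Loxl4* in PD800 limit the precision of its value.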
